A study of Mus musculus with 28 samples.

Results

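The effect of DRB on newly made RNA was read from 2 of the 28 libraries of the series. Both are 4-thiouridine (4sU) labelled RNA of bone marrow-derived macrophages that carried a scrambled short hairpin and received lipopolysaccharide (LPS) for 45 min, and they were chosen by their labels as the library with DRB and its counterpart without DRB. The macrophages were grown from FVB/Hsd mice to day 7 of differentiation, infected with retrovirus carrying the hairpin and selected with puromycin, so the controls also carry a hairpin vector and have been under selection. LPS, a bacterial cell wall component, was given at 10 ng/ml, and 4sU was present for 45 min before harvest. DRB was given as a pre-treatment, at a dose and for a time that the labels used here do not state. The same table holds a second pair, cells with the hairpin sh1137 against Wdr82 under the same LPS treatment with and without DRB, which served as the only repeat of the DRB comparison; these cells differ from the first pair by the depletion of Wdr82. With 1 library on each side, the scrambled pair has no p-value. Whether cultures came from separate mice is not stated, so the spread between libraries may be technical.

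DRB (5,6-dichloro-1-beta-D-ribofuranosylbenzimidazole) is a nucleoside analogue that inhibits CDK9, the kinase of P-TEFb, and other kinases such as casein kinase 2. P-TEFb releases RNA polymerase II from its pause shortly after the start of a gene, and genes that are switched on rapidly by LPS in macrophages are a textbook case of control at that step. The study used DRB to prevent elongation. Because 4sU enters RNA only while it is made, labelled RNA follows synthesis more closely than polyA RNA does, although unlabelled RNA carried through the purification also contributes.

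With DRB, genes that LPS switches on were lower: 215 of 326 were so by 2-fold or more, beside 16% of all tested genes, Tnf among them with 2520.4 FPKM without and 190.1 FPKM with DRB. The fall was not particular to them, since 50 of 85 genes that LPS lowered (58.8%) were also 2-fold lower with DRB. Genes longer than 100 kb were higher, 292 of 498 by 2-fold or more, and so were 48 of 60 histone genes, beside 16.7% of all tested genes. Silent genes that lie downstream of a long active gene on the same strand reached 1 FPKM in 28 of 50 cases with DRB and in 3 without. The libraries with the sh1137 hairpin showed each of these with a median or share of the same direction.

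The values are FPKM (fragments per kilobase of transcript, relative to the fragments of the library), which are shares of a library: a fall of total RNA synthesis common to all genes would not appear in them. Of the 36806 genes listed, 12407 reached 1 FPKM with DRB and 12350 without. The files hold no read counts, but low values are whole multiples of what a fragment is worth, and the commonest ratio between the libraries put the depth of the scrambled DRB library at about 0.516 of its counterpart and that of the sh1137 DRB library at about 0.486 of the scrambled library without DRB. Low FPKM are therefore noisier with DRB. All 12 macrophage markers found in the table were above 1 FPKM in both libraries. The erythroid markers Alas2, Hba-a1 and Hbb-b1 were listed at 0 in both, the 8 lymphocyte markers summed to 0.281 FPKM without and 2.19 FPKM with DRB (all of the latter from Cd79a), and the 11 neutrophil markers summed to 7.55 FPKM without and 6.52 FPKM with DRB. Wider marker lists held exceptions. Without and with DRB, Pf4 (megakaryocyte) stood at 64.1 and 112 FPKM, Kit (mast cell) at 8.07 and 2.58 FPKM and Kdr (stromal) at 7.28 and 4.46 FPKM. A wider neutrophil list of 16 genes summed to 11.1 and 15.0 FPKM.

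A gene was tested when it reached 1 FPKM in either library and both estimates were marked OK, and it was called when log2((FPKM + 1)/(FPKM + 1)), here the log2 ratio, was at least 1 in size, a 2-fold change. Of 13249 tested genes, 2217 were higher with DRB (16.7%) and 2119 were lower (16%). In the sh1137 pair, 1854 of 13521 genes were higher (13.7%) and 2148 were lower (15.9%). Of the genes tested in both pairs, 12716 in number, 1183 were 2-fold higher in both (9.3%), which is 58.7% of those called in the scrambled pair and 68.9% of those called in the sh1137 pair. The count lower in both was 1450 (11.4%), or 72.4% and 76.4% of the respective calls, and 50 genes (0.393%) were called in opposite directions. The deposited confidence bounds of the 2 scrambled libraries were apart for 185 higher genes (1.4%) and 294 lower genes (2.22%). The median log2 ratio of all tested genes was 0.16, and the higher genes made up 51.1% of the calls; with the ratios centred on that median they made up 39.6% (1666 higher and 2537 lower), so ratios close to 0 have no firm sign.

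A limma model over the 4 libraries, with hairpin and DRB as terms, has 1 residual degree of freedom per gene, the difference of the DRB ratio between hairpins. The error of each gene was moderated with the variance of other genes at similar levels, which counted as 3.79 prior degrees of freedom. Its p-values thus rest more on this shared variance than on the gene's own repeat. At an adjusted p under 0.05 it called 3380 of 14045 genes higher with DRB (24.1%) and 2477 lower (17.6%). Without any filter on low values the same model called 0 genes in either direction, with 3263 higher and 2516 lower at an unadjusted p under 0.05. In what follows a gene or a member of a list is said to have risen or fallen where this model called it in the filtered fit. A further comparison comes from the scrambled libraries with 45 min of LPS and no DRB in the Pnuts and Set1 sets, whose tables were normalized separately. After centring, the 3 libraries without DRB were 2-fold apart in 4.07 to 11.1% of genes, and the DRB library was 2-fold apart from each of them in 29 to 31.7%. It lay 2-fold above all 3 for 1028 of 13244 genes (7.76%) and 2-fold below all 3 for 1444 (10.9%).

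Of the 15 named genes with the lowest ratios, 13 are LPS-induced genes by the definition given further on. Irf1, a transcription factor of the interferon response, stood at 540.2 FPKM without and 24.9 FPKM with DRB, and at 489 and 20.4 FPKM in sh1137 cells. Zfp36, whose product (tristetraprolin) destroys cytokine mRNA, stood at 877 and 42.6 FPKM, and at 797 and 35.5 FPKM in sh1137 cells. Tnf, the gene of tumour necrosis factor, lies outside the 15 and is given for its high level, with 2520.4 and 190.1 FPKM, and 2596 and 171 FPKM in sh1137 cells. In each of these genes the values of both libraries with DRB lay far below those of both libraries without it. The deposited bounds of the scrambled pair were apart for Zfp36 only. Those of Irf1 overlapped narrowly (43.03 to 1050 FPKM without and 6.24 to 43.70 FPKM with DRB). Those of Tnf were 79.6 to 5415 FPKM without and 55.4 to 326 FPKM with DRB. The limma estimates were -4.45 for Irf1 (SE 0.14, adjusted p 0.00095), -4.39 for Zfp36 (SE 0.13, adjusted p 0.00095) and -3.82 for Tnf (SE 0.14, adjusted p 0.0016), on the log2 scale.

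**Figure D1:**
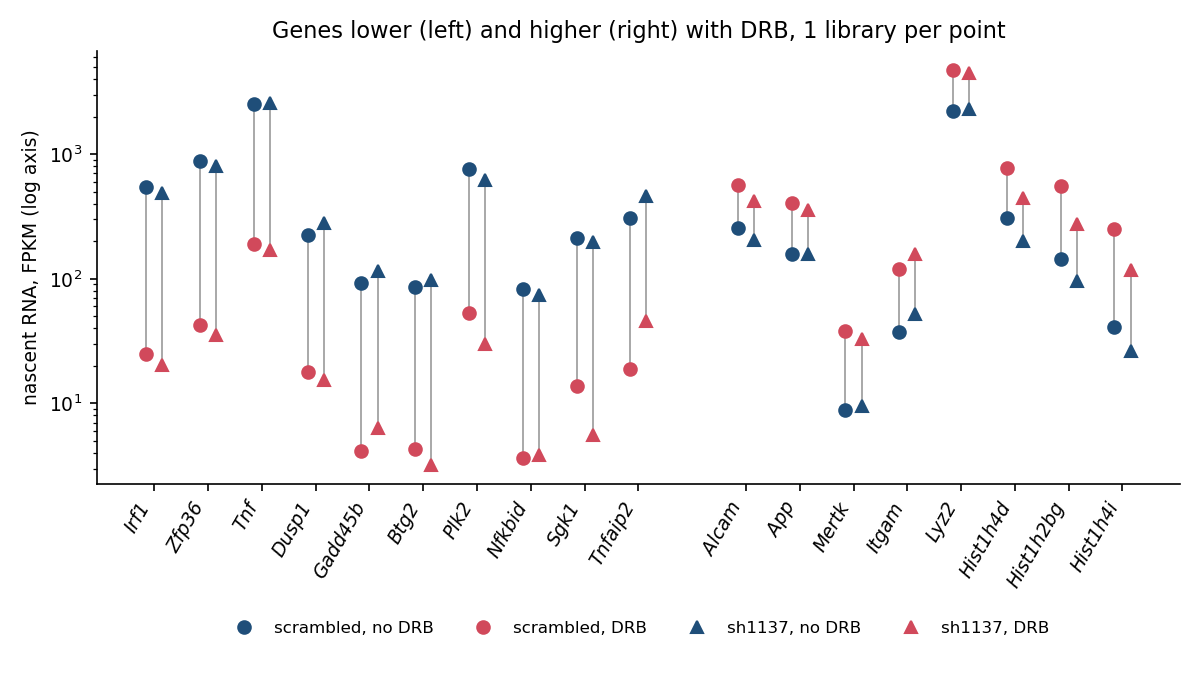
FPKM on a log axis (y) of 18 named genes (x) in the 4 libraries of the DRB table; each point is 1 library, circles are the scrambled and triangles the sh1137 hairpin, blue without and red with DRB, and grey lines join the libraries of a pair. The 10 LPS response genes on the left fall with DRB in both hairpins, as for Tnf from 2520.4 to 190.1 FPKM in scrambled cells, and the long, macrophage and histone genes on the right are higher with DRB in both.

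Other genes of the 15 lowest ratios were Osm (the cytokine oncostatin M, 29.9 and 0.619 FPKM), Gadd45b (a stress-response regulator, 91.8 and 4.15 FPKM), Nfkbid (an inhibitor of NF-kappaB, 82.5 and 3.67 FPKM) and Btg2 (an antiproliferative immediate early gene, 86.1 and 4.30 FPKM). Socs3, a brake on cytokine signalling, stood at 165 and 9.69 FPKM. Dusp5, a phosphatase of MAP kinases, went from 20.0 to 0.377 FPKM, and Maff, a small leucine zipper factor, from 37.0 to 1.61 FPKM. Each of these was lower with DRB in both hairpins and fell by limma, with adjusted p from 0.0016 to 0.0022. Only genes with the same direction in both hairpins were ranked, and limma used the ratios that ranked them. Both results thus describe the choice and are no separate support. Ppia, which encodes cyclophilin A and has many processed copies in the genome that can take its reads, was not an LPS gene and stood at 40.4 and 1.38 FPKM. A 93-base entry under the symbol Uck2 was listed at 0 in both DRB libraries.

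Promoter sequence is shown for genes from both ends of the response, the 150 bases before the start in RefSeq (GRCm38.p6, whose coordinates differ from those of the mm9 tables), because TATAAA was found in 18.1% of the LPS-induced genes lower with DRB and in 58.5% of the histone genes described further on, beside 7.07% of all tested genes with a promoter. Capitals mark the TATA box (searched as TATAAA), the CCAAT box and a motif bound by NF-kappaB, each on either strand. Tnf lies on the minus strand at chr17:35202008-35202157, Gadd45b on the plus strand at chr10:80929941-80930090, Dusp5 on the plus strand at chr19:53528995-53529144, and the histone genes Hist1h4d and Hist1h2bg on the plus strand at chr13:23581418-23581567 and chr13:23571250-23571399.
Tnf: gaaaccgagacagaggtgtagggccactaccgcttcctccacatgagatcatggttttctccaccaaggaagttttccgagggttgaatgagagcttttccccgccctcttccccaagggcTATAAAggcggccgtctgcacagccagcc
Gadd45b: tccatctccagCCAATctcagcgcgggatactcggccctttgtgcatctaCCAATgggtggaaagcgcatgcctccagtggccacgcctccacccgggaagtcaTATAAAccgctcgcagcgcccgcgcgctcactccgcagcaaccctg
Dusp5: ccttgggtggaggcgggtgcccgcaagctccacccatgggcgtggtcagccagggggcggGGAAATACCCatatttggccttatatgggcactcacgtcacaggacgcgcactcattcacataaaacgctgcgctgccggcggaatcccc
Hist1h4d: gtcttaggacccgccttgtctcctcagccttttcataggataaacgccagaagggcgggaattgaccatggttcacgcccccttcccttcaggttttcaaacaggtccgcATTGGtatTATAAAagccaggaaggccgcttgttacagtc
Hist1h2bg: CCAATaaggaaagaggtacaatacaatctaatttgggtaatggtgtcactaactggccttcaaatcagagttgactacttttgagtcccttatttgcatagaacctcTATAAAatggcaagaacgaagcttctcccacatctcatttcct
The TATAAA of Tnf begins 29 bases before the start, that of Gadd45b 46 bases, that of Hist1h4d 32 bases and that of Hist1h2bg 43 bases before it, while Dusp5 has none in the window and holds the NF-kappaB motif 90 bases before its start. Over windows of 300 bases, from 250 before to 50 after the start, TATAAA on either strand was found in 29 of 160 LPS-induced genes that were 2-fold lower with DRB (18.1%), in 322 of 5092 genes that LPS left flat (6.32%), in 638 of 9027 tested genes with a promoter in the table (7.07%) and in 14.2% of all 27025 genes there. The NF-kappaB motif was in 12.5% of the induced and lower genes and in 5.39% of the tested genes. CCAAT was in 36.9% of them and in 39.1% of the tested genes, and the cAMP response element TGACGTCA in 4.38% and 3.40%. Most genes with the lowest ratios lack TATAAA: Irf1, Zfp36, Nfkbid, Btg2, Socs3, Tnfaip2, Maff, Sgk1 and Uck2, not printed, hold none in that window. Adamts1, Gdap10 and Ppia, also not printed, hold it. Induced genes that were not lower with DRB were not counted. The shares thus do not separate the DRB response from induction by LPS. These are matches of letters and do not show binding.

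LPS-induced genes were defined from libraries that the DRB comparison does not use, the scrambled libraries of the Pnuts and Set1 sets with and without 45 min of LPS. Of 9878 genes that reached 5 FPKM there, 343 were 2-fold higher with LPS in both sets (3.47%), and 326 of these were tested for DRB. Their median log2 ratio was -1.55 in scrambled and -1.75 in sh1137 cells, against 0.16 for all tested genes. Of the 326, 215 were 2-fold lower with DRB (66%) and 10 were 2-fold higher, beside 16% and 16.7% of all tested genes. The limma model called 245 lower and 11 higher. The deposited bounds were apart in the lower direction for 75 of the 326, beside 2.22% of all tested genes. The 6714 genes that changed by less than 0.5 on the log2 scale with LPS in both sets had a median of 0.25, with 15.4% higher and 11.3% lower. Of the 9878 genes, 93 were 2-fold lower with LPS in both sets (0.941%). The 85 of them that were tested had a median of -1.25, and 50 of them were 2-fold lower with DRB (58.8%). A fall with DRB was thus common to genes that LPS raised and genes that it lowered.

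The median log2 rise of the induced genes with LPS was 1.85 in the Pnuts and 1.80 in the Set1 set, beside the median DRB ratio of -1.55. For 99 of the 326 (30.4%) the fall with DRB was at least as large as the rise in both sets. Cells without LPS are found only in other sets, so a direct comparison with them also holds differences between sets. Set against the untreated scrambled library of the Pnuts set, and centred on the median of all genes because the tables were normalized separately, the induced genes had a median log2 ratio of 1.25 in the library without DRB and -0.35 in the library with DRB. Against the untreated library of the Set1 set the medians were 1.12 and -0.50. The library with DRB was 2-fold below the untreated Pnuts library for 85 and 2-fold above it for 44 of 315 induced genes, and against the untreated Set1 library for 101 and 43 of 316. In sh1137 cells the medians went from 1.33 to -0.48 and from 1.2 to -0.60. The LPS libraries of the DRB table were themselves below those of the other sets: without DRB, the induced genes had a median of -0.70 against the LPS library of the Pnuts set and -0.76 against that of the Set1 set. Tnf, for example, stood at 2520.4 FPKM there and at 5800.0 and 5937 FPKM in the other sets, and the immediate early gene Egr1, of a zinc finger transcription factor, at 54.7 FPKM against 306 and 410 FPKM. The levels of these LPS genes were thus lower in the DRB table without any DRB. The part of this in the DRB ratio and in the medians against untreated cells was not tested. Whether the induced genes with DRB lay above or below the level without LPS is therefore not settled by these medians.

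Among lists of genes by function, the immediate early genes had a median of -1.30, with 14 of 23 tested members 2-fold lower (60.9%, beside 16% of all tested genes) and none higher. Klf6, a zinc finger factor induced by many stimuli, stood at 541 and 269.9 FPKM, and Plk2, a kinase of the polo family, at 767 and 52.8 FPKM. Exceptions were Egr1, at 54.7 and 74.2 FPKM, and Ier2, at 42.5 and 49.0 FPKM; both were lower with DRB in sh1137 cells (101 and 68.1 FPKM, and 46.9 and 26.0 FPKM), so their direction differed between hairpins. Inflammatory cytokine and chemokine genes had a median of -1.98, and 21 of 25 were lower (84%, beside the same 16%). Cxcl2, a chemokine that draws neutrophils, stood at 1890.2 FPKM without and 969 FPKM with DRB, a log2 ratio of -0.96, against -3.72 for Tnf. Ccl5, a chemokine of the later response, stood at 6.00 and 12.6 FPKM. The 2 most abundant transcripts of the list thus differed widely in their ratios.

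NF-kappaB subunits and feedback genes had a median of -1.97, with 21 of 26 lower (80.8%, beside 16% of all tested genes). Nfkbia, which encodes the inhibitor IkappaB-alpha, stood at 1390 FPKM without and 296 FPKM with DRB, and Tnfaip3, the ubiquitin-editing enzyme A20, at 658 and 254 FPKM. Nfkb1, the gene of the p105 and p50 subunit, was the single member 2-fold higher, with 39.9 and 85.0 FPKM (35.7 and 65.9 FPKM in sh1137 cells), and its locus is 107 kb long. Phosphatases of MAP kinases and mRNA decay factors had the lowest median of all lists with 10 or more tested genes, -2.62, with 18 of 22 lower (81.8%); Dusp1, which shuts off p38 and JNK, stood at 225 and 17.7 FPKM. Of the 33 interferon and late LPS genes tested, 8 were lower (24.2%, beside 16%), and their median was -0.43. Irf1 and Irg1 (the itaconate enzyme, 49.8 and 3.72 FPKM) had the lowest ratios of that list.

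The DRB ratio differed with the length of the gene. For the genes with a locus to themselves, the median log2 ratio was 0.56 under 2 kb (1222 genes), 0.20 from 2 to 5 kb, 0.01 from 5 to 10 kb, -0.13 from 10 to 20 kb and -0.14 from 20 to 50 kb (1872 genes). It then rose to 0.29 from 50 to 100 kb, 1.03 from 100 to 200 kb (376 genes) and 1.38 above 200 kb (122 genes). In sh1137 cells the medians of the last 2 classes were 0.80 and 1.02. Of the 498 genes longer than 100 kb, 292 were 2-fold higher with DRB (58.6%) and 6 were lower (1.2%), beside 16.7% and 16% of all tested genes; limma called 333 higher and 11 lower. For the 7223 shorter genes the shares were 11.7% and 16.7%. The quartiles of the 2 longest classes, 0.59 to 1.5 and 1.06 to 1.86, lay above the upper quartile of the 10 to 20 kb class, 0.45.

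Alcam, an adhesion molecule with a locus of 205 kb (mm9, chr16:52249109-52454187), stood at 254 FPKM without and 565 FPKM with DRB, and at 206 and 418 FPKM in sh1137 cells. App, the amyloid precursor protein gene, of 219 kb (mm9, chr16:84954685-85173952), stood at 159 and 404 FPKM, and at 158 and 359 FPKM. Dock2, a guanine nucleotide exchange factor for Rac in leukocytes, shares a locus of 471 kb with 2 other entries and stood at 132 and 586 FPKM. All of these rose by limma, with adjusted p from 0.0044 to 0.0067. Nceh1, an esterase gene of 102 kb, was an exception with 147 and 183 FPKM, a log2 ratio of 0.32, and it did not pass (adjusted p 0.14). The files give 1 FPKM per gene, so where along a long gene the reads lie was not analysed here.

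**Figure D2:**
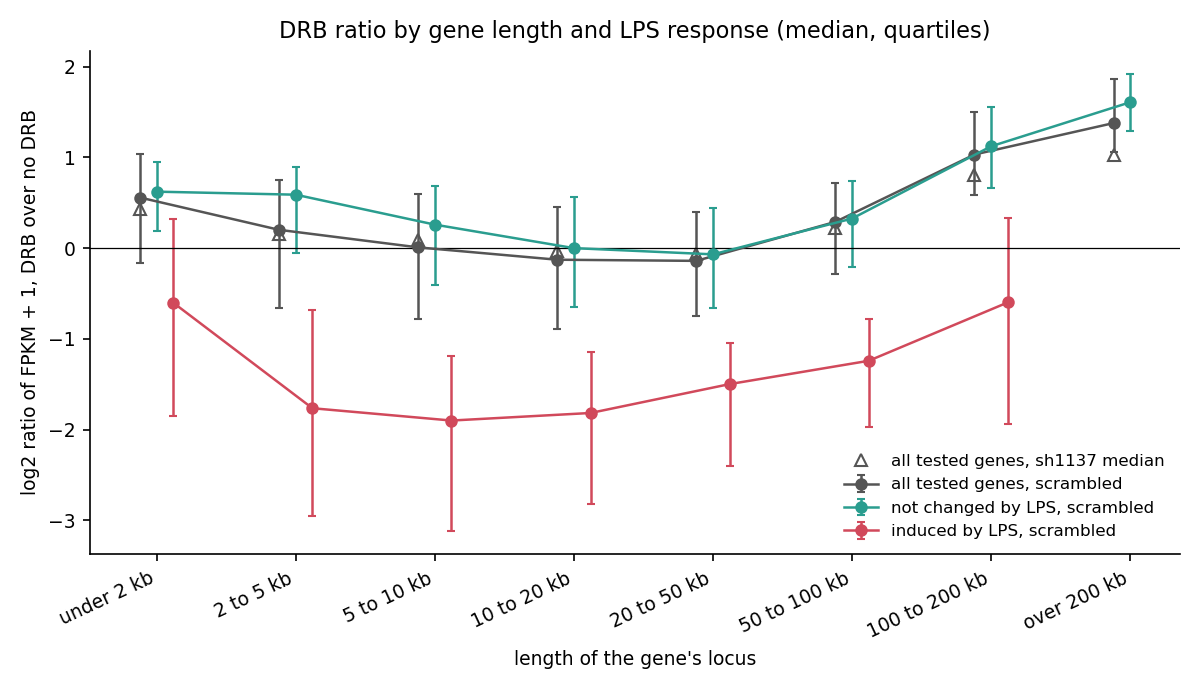
Log2 ratio of FPKM + 1 with over without DRB (y) by length of the locus (x): points are medians and bars the quartiles over genes in the scrambled pair, for all tested genes (grey), genes flat with LPS (green) and LPS-induced genes (red, classes of at least 4 genes); open triangles are medians of all tested genes in the sh1137 pair. The median of all genes rises from -0.14 at 20 to 50 kb to 1.38 above 200 kb, while the induced genes have medians below 0 in each class shown.

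Within a class of length, induced and flat genes were apart. From 5 to 10 kb, 37 of 45 induced genes were 2-fold lower (82.2%), with a median of -1.90, against 15.2% of 506 flat genes, with a median of 0.26. From 20 to 50 kb the medians were -1.50 for 46 induced and -0.07 for 1137 flat genes. Above 200 kb, 61 of 69 flat genes were 2-fold higher (88.4%), with a median of 1.61. Only 6 induced genes with a locus to themselves were longer than 100 kb. Sgk1, a kinase of the glucocorticoid and stress response (118 kb), stood at 213 FPKM without and 13.7 FPKM with DRB and at 197 and 5.62 FPKM in sh1137 cells, and Pde4b, a cAMP phosphodiesterase (520 kb), at 55.4 and 7.33 FPKM and at 56.2 and 6.34 FPKM. Arhgef3 (8.81 and 2.99 FPKM) also fell by limma, as did Pcdh7 (48.4 and 33.8 FPKM), whereas Rapgef2 stood at 35.7 and 74.0 FPKM (47.0 and 56.2 FPKM in sh1137 cells). Sema3c, the last, stood at 4.83 and 5.26 FPKM. Annotated loci can hold several starts, and which of them was used was not analysed here.

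Replication-dependent histone genes, short intronless genes whose mRNA ends in a stem-loop instead of a polyA tail, were the list with the highest median among those of ordinary genes with 10 or more tested members. It was 1.56 in scrambled and 1.01 in sh1137 cells, and 48 of 60 tested members were 2-fold higher with DRB and none lower; limma called 51 higher. Hist1h4d, which encodes histone H4 (0.393 kb), stood at 307 and 777 FPKM, and at 202 and 445 FPKM in sh1137 cells. Hist1h2bg, a histone H2B gene, stood at 143 and 559 FPKM, and at 95.5 and 275 FPKM. Hist1h4i had the second-highest ratio, 2.58, with 40.9 and 250.4 FPKM. Hist2h2ac was the lowest, with 61.5 and 74.8 FPKM. Levels without DRB were below those of the Pnuts and Set1 LPS libraries, where Hist1h4d stood at 590.2 and 645 FPKM. With DRB, Hist1h4d was above both of these values in scrambled cells and below both in sh1137 cells. Hist2h2ac with DRB was below both other sets, where it stood at 113 and 133 FPKM. The part of the low levels without DRB in the histone ratios was not tested. Histone genes are near copies of each other, so reads may be divided between them. TATAAA was found in 31 of 53 of their promoters (58.5%) and CCAAT in 45 (84.9%). Hist1h4d and Hist1h2bg, printed above as examples, hold both in the bases shown. Hist1h2bp, which was not printed, has its only TATAAA 212 bases before the start.

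Macrophage markers were higher as a group: 9 of 22 tested members were 2-fold higher (40.9%, beside 16.7% of all tested genes) and none lower, and limma called 21 higher, beside 24.1% of all tested genes, with a median of 0.99 in scrambled and 0.92 in sh1137 cells. In bulk RNA a change in the share of a cell type and in the RNA per cell cannot be told apart. Lyz2, the lysozyme gene, stood at 2226 and 4696 FPKM, and at 2324 and 4450.4 FPKM in sh1137 cells. Ctsd, cathepsin D, stood at 2444 and 4829 FPKM, Itgam (the integrin CD11b) at 37.4 and 120.0 FPKM, and Mertk, a receptor for dying cells, at 8.84 and 38.4 FPKM. Cd14, a co-receptor for LPS, was the member below 0, with 285 and 224 FPKM. Nuclear genes of oxidative phosphorylation had a median of 0.66, with 22 of 29 risen by limma, and cytoskeleton genes one of 0.60, with 15 of 23 risen, beside the same 24.1%. By the 2-fold call, only 6 of the 29 (20.7%) and 3 of the 23 (13%) were higher, near or below the 16.7% of all tested genes. Of 77 ribosomal protein genes, 9 were 2-fold higher (11.7%) and 8 lower (10.4%), both below the shares of all tested genes: Rpl8 stood at 269 and 558 FPKM, and Rpl10 at 133 and 30.9 FPKM. The 37 mitochondrially encoded genes are listed at 0 in both libraries.

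**Figure D3:**
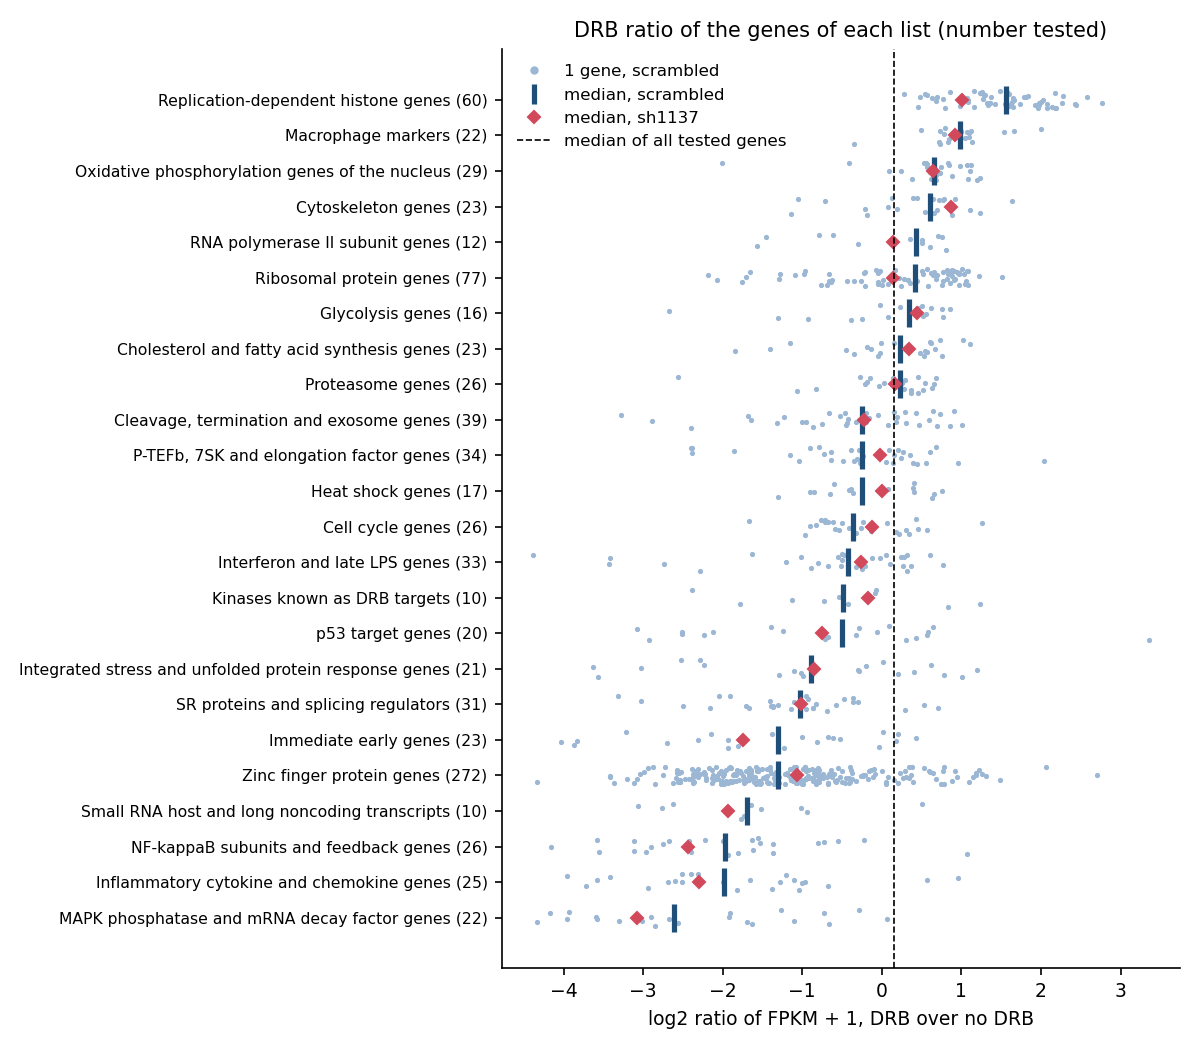
Log2 ratio of FPKM + 1 with over without DRB (x) for the gene lists with at least 10 tested genes (y, number tested in parentheses): pale points are genes in the scrambled pair, blue bars their medians, red diamonds the medians in the sh1137 pair, and the dashed line is the median of all tested genes, 0.16. The lists of snoRNA, spliceosomal snRNA, RNA polymerase III and microRNA entries are not drawn. The lists of LPS response and feedback genes, small RNA hosts, zinc finger genes and immediate early genes lie at the low end, with medians from -2.62 to -1.30, and the histones and macrophage markers at the high end, at 1.56 and 0.99.

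The DRB ratio also differed with the amount of polyA RNA that stood against the labelled RNA. The ratio of polyA FPKM to 4sU FPKM in untreated cells with an empty vector, from 2 other tables normalized separately and made from unstranded libraries, was used to sort tested genes into 5 classes of equal size. From the lowest to the highest class the median log2 ratio with DRB was -0.44, -0.32, 0.02, 0.29 and 0.58. For genes of up to 100 kb with a locus to themselves, 41.2% of 1142 genes in the lowest class were 2-fold lower, and 4.15% of 1568 in the highest. For genes longer than 100 kb the medians of the classes lay close together, between 0.99 and 1.29. Genes were sorted by libraries outside the DRB table, and expression level was not matched between the classes.

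**Figure D4:**
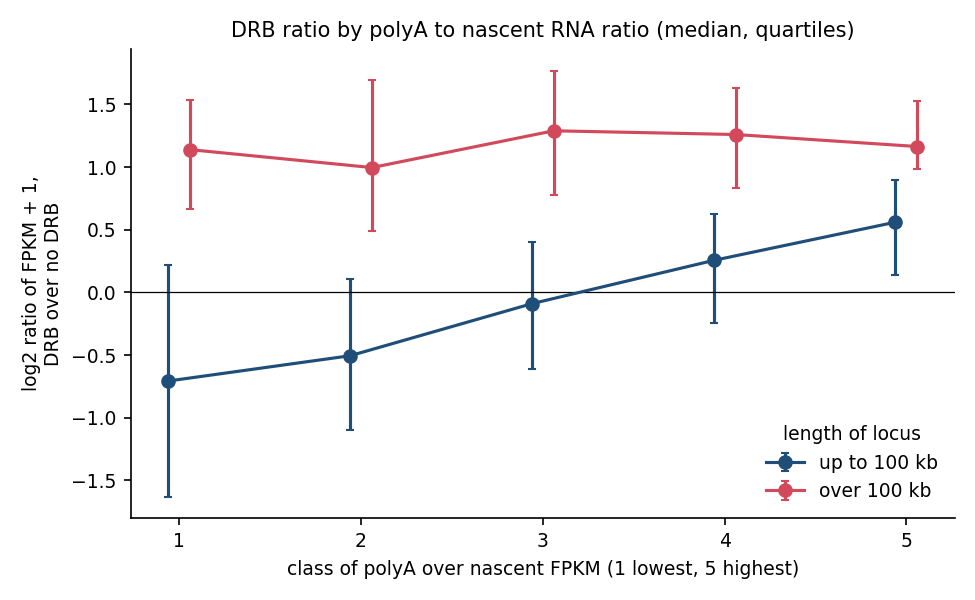
Log2 ratio of FPKM + 1 with over without DRB in the scrambled pair (y) by class of the polyA to nascent FPKM ratio in untreated cells (x, 1 lowest to 5 highest); points are medians and bars quartiles over genes, blue for loci of up to 100 kb and red for longer ones. The blue medians rise from the first to the last class, and the red medians stay between 0.99 and 1.29.

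Among the regulators of transcription itself, Cdk9, the kinase that DRB inhibits in P-TEFb, stood at 52.9 FPKM without and 31.4 FPKM with DRB (55.1 and 38.0 FPKM in sh1137 cells) and fell by limma (adjusted p 0.028). Its cyclin partners had lower ratios: Ccnt1 (cyclin T1) at 42.1 and 7.24 FPKM and Ccnt2 (cyclin T2) at 50.5 and 8.78 FPKM. Hexim1, which holds P-TEFb inactive together with the 7SK RNA, stood at 31.6 and 8.0 FPKM and also fell, with an adjusted p of 0.0048 by limma. Mepce, the capping enzyme of 7SK RNA, stood at 19.2 and 2.86 FPKM. An entry of 7SK itself, transcribed by RNA polymerase III, stood at 4183 and 14815 FPKM, and at 4482 and 15531 FPKM in sh1137 cells. Another 7SK entry, near the floor, stood at 1.28 and 0 FPKM, and at 0 and 2.48 FPKM in sh1137 cells. The list of RNA polymerase III transcripts was split, with 32 of 66 tested 2-fold higher (48.5%) and 22 lower (33.3%). Its median was 0.65 in scrambled and 0 in sh1137 cells. Cdk7, the kinase of TFIIH, stood at 11.3 and 2.59 FPKM. Csnk2a1, a catalytic subunit of casein kinase 2, stood at 16.0 and 10.7 FPKM and did not pass (adjusted p 0.17). Over the whole list of P-TEFb, 7SK and elongation factors, 6 of 34 were 2-fold lower (17.6%, near the 16% of all tested genes) and 1 higher; that gene, Mllt3, a subunit of the super elongation complex, has a locus of 263 kb and stood at 6.26 and 28.9 FPKM. Wdr82, the target of sh1137, stood at 28.5 and 10.8 FPKM in scrambled cells.

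SR proteins and splicing regulators were lower in 16 of 31 tested members (51.6%, beside 16% of all tested genes) and higher in none, with a median of -1.03; limma called 22 lower, beside 17.6% of all tested genes, and 2 higher. Clk1 and Clk4, kinases of SR proteins, stood at 252 and 30.1 FPKM and at 89.7 and 8.11 FPKM, and Rbm39, a splicing factor, at 685 and 120.2 FPKM. Small RNA host and other long noncoding transcripts were lower in 8 of 10 (80%), for example Gas5, which carries snoRNAs in its introns, with 155 and 53.4 FPKM. Zinc finger protein genes were the largest list, with 163 of 272 tested members 2-fold lower (59.9%, beside 16%), 10 higher and a median of -1.31 (-1.07 in sh1137 cells). Zfp36 is in that list by its symbol. Zfp747 stood at 12.5 and 0.262 FPKM, and Zfp704, with a locus of 207 kb that it shares, at 7.71 and 35.3 FPKM. Of 20 p53 target genes, 8 were 2-fold lower (40%) and 1 higher (5%), which was Rrm2b, a ribonucleotide reductase subunit (3.56 and 45.7 FPKM). Of 21 genes of the unfolded protein and integrated stress responses, 9 were lower (42.9%) and 2 higher (9.52%), among them Sdf2l1 (26.9 and 63.0 FPKM). Over all tested genes 16% were lower and 16.7% higher, so both lists had fewer higher genes than that. Chac1 and Ddit3, targets of the integrated stress response, stood at 20.6 and 0.739 FPKM and at 67.5 and 4.78 FPKM, Cdkn1a (p21) at 246 and 104 FPKM, and Mdm2, the ubiquitin ligase of p53, at 631 and 505 FPKM.

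The highest ratios were of another kind, genes with almost no RNA without DRB. Adam30, a metalloprotease gene, stood at 0.0511 FPKM without and 48.2 FPKM with DRB, and at 0.181 and 27.7 FPKM in sh1137 cells. Foxi1, a forkhead factor of the inner ear and kidney, stood at 0.102 and 36.9 FPKM, Oxt, the oxytocin gene, at 0.305 and 34.5 FPKM, and Ucp1, the uncoupling protein of brown fat, at 0.684 and 27.9 FPKM. Apoa1, the main protein of high-density lipoprotein, was listed at 0 in both libraries without DRB and stood at 18.6 and 12.3 FPKM with it. In all of them both DRB libraries were above 5 FPKM and both libraries without DRB were below 1 FPKM.

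Many such genes lie next to a long gene that is active. Foxi1 (mm9, chr11:34104338-34108089) lies 18.7 kb from the locus of Dock2. Oxt (mm9, chr2:130401909-130402790) lies 7.48 kb from that of Ptpra, a receptor phosphatase, of 118 kb. Apoa1 (mm9, chr9:46036663-46038549) lies 4.39 kb from Sik3, a salt-inducible kinase of 211 kb that stood at 12.5 FPKM without and 72.7 FPKM with DRB, and Adam30 (mm9, chr3:97964735-97967096) lies 10.4 kb from Notch2, of 137 kb, at 31.6 and 107 FPKM. Not every such neighbour was higher with DRB. Coro6 (0.128 and 11.3 FPKM) lies 2.19 kb from the locus of Gm12346, which stood at 46.6 and 44.0 FPKM. The comparison was then made over all genes, with distances chosen after the values had been seen. A gene was taken as silent when it had a locus to itself, an ordinary gene name and less than 1 FPKM in the LPS libraries of the Pnuts and Set1 sets, which holds for 6506 genes. Of the 248 within 25 kb of a locus longer than 100 kb with a gene of at least 5 FPKM, 54 reached 1 FPKM with DRB (21.8%) and 8 without (3.23%); in sh1137 cells the counts were 47 (19%) and 12 (4.84%). Of 1812 silent genes within 25 kb of shorter active loci only, 6.51% reached 1 FPKM with and 3.20% without DRB, and of 4446 farther away, 1.51% and 0.652%. A fragment is worth a larger FPKM in the shallower DRB libraries; the part of this in these shares was not tested.

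Silent genes near long loci differed by side and strand. Strands were taken from RefSeq where its promoter table holds the gene. Of 50 silent genes that lie downstream of the long gene on the same strand, 28 reached 1 FPKM with DRB (56%) and 3 without (6%); in sh1137 cells the counts were 23 (46%) and 5 (10%). Of 49 that lie downstream on the opposite strand, 2 reached it with DRB (4.08%) and 1 without, and in sh1137 cells 2 and 1. Of 16 upstream on the same strand, 2 reached it with and 2 without, and of 27 upstream on the opposite strand, 1 and 0. For 37 downstream genes whose own strand the table does not hold, the counts were 14 and 0, and for 16 such genes upstream, 0 and 1. For 53 others, whose long gene's strand is not held, the counts were 7 and 1. Foxi1, Oxt, Apoa1 and Ucp1 are all downstream on the same strand. A value per gene cannot tell RNA begun at the gene's own start from RNA that entered it from upstream.

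**Figure D5:**
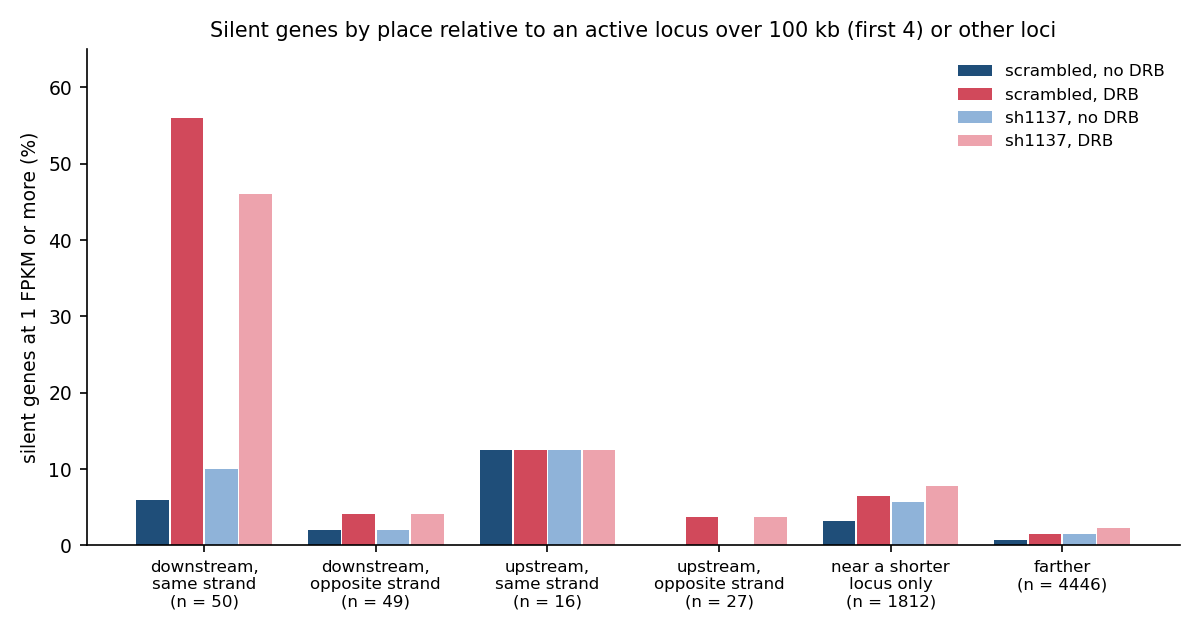
Percent of silent genes at 1 FPKM or more (y) by place (x): within 25 kb of an active locus over 100 kb, by side and strand, then within 25 kb of a shorter active locus only, then farther; bars are the 4 libraries of the DRB table, n is the number of silent genes. Genes downstream on the same strand reach 56% with DRB and 6% without in scrambled cells, and 46% and 10% in sh1137 cells, and no other place shown exceeds 12.5% in any library.

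By a stricter rule, less than 1 FPKM in both libraries without DRB and at least 5 FPKM in both with it, 19 silent genes gained RNA. Of these, 14 lie within 25 kb of a long active locus (73.7%), where 3.81% of all silent genes lie. The strand of both genes is held for 9 of the 14, and all 9 are downstream on the same strand. Beyond the 4 named, they are Timm8a2 beside Ubac2 (27.9 FPKM with DRB), Gpr75 beside Psme4 (25.2 FPKM), Txndc2 beside Rab31 (19.6 FPKM), Cyp26c1 beside Exoc6 (18.4 FPKM) and Ccdc141 beside Sestd1 (17.8 FPKM). These genes were chosen by their DRB values, so the count is a description.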

How the data were processed

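The authors deposited tables of FPKM per gene, each value with its confidence bounds and an estimation status, per the file headers. Reads were processed with TopHat 1.3.1, Cufflinks 2.1.1 and Cuffdiff 2.1.1 on mm9, per the submitters' processing notes; the scaling between libraries is not given in the sources used here. Libraries of the DRB, Pnuts and Set1 tables are strand-specific and those of the empty-vector tables behind the polyA classes unstranded, per the labels. Read counts are not in the tables used here, so no counting interval was computed. Loci came from the tables, and a gene's length is the span of its locus.

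Ratios used a pseudocount of 1 FPKM. The limma 3.58.1 fit (R 4.3.3, with trend, Benjamini-Hochberg adjustment) used 4 libraries and was tested on simulated data. Genes named in the text are the 15 highest and 15 lowest ratios (at least 5 FPKM in the higher library, same direction in sh1137 cells, ordinary gene names), the highest and most extreme members of 36 gene lists, the P-TEFb genes and the most abundant genes per length class; other genes named as neighbours, exceptions or long induced genes were chosen after their values were seen. The members and lists were chosen with earlier results of these data known. Promoter sequences and strands are from RefSeq (GRCm38.p6), where 9090 tested entries matched by symbol or unique synonym. Alternatives were other pseudocounts, filters and centring, named genes only and genes alone in their locus. The stranded 1 h table was not used.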

Additional observations from a re-analysis of the deposited data

Results flagged for a closer look

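The 2 hairpins went opposite ways for 50 of the 12716 genes tested in both pairs (0.393%), which were 2-fold higher with DRB in one pair and 2-fold lower in the other; the difference itself was not tested. Only 2 of the 50 carry ordinary gene names, and both were chosen after their values were seen. Mipol1 stood at 7.33 FPKM without and 3.11 FPKM with DRB in scrambled cells and at 0.919 and 4.19 FPKM in sh1137 cells. Prelid2 stood at 1.42 and 4.04 FPKM, and at 2.13 FPKM and 0 in sh1137 cells. The other 48 are small RNA, pseudogene, clone or predicted entries.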

How the results depend on the processing

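With a pseudocount of 5 FPKM, 1221 genes were 2-fold higher and 1145 lower, and over genes with a locus to themselves 1139 and 1214; against all 3 libraries without DRB, chosen after seeing the data, 1028 were higher. The limma fit without a filter called 0 genes either way, with 3263 higher and 2516 lower at an unadjusted p under 0.05. With a pseudocount of 0.1 FPKM the medians moved to -1.58 for LPS-repressed genes, -2.52 for cytokines, -1.78 for zinc finger genes, 1.19 for neutrophil, 0.89 for lymphocyte, 2.1 for erythroid and 1.15 for mast cell markers, the last 4 over few genes at low FPKM. The share of silent genes at 1 FPKM near long loci was 11.8% within 100 kb, and 8.87% reached 5 FPKM within 25 kb. The cause of these moves was not tested. The other 126 values of counts, classes and lists, and 358 of 404 for single genes, stayed within 1.5 times or 0.30 on the log2 scale of the reported value. Reversal was counted only for log2 values of at least 1 in size, and none of these changed sign. Values close to 0 can change sign with centring and were not counted. Centring on mitochondrial genes was not run, since all are listed at 0. No paired analysis was possible because the labels carry no replicate numbers; the limma fit has the hairpin as a term instead, and leaving out a library leaves limma no residual degrees of freedom. Relative depth limits low FPKM, above all with DRB.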
